A study of Mus musculus with 12 samples.

Results

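Cholesterol synthesis was described here by 7 mouse genes, Hmgcs1, Idi1, Sqle, Lss, Cyp51, Dhcr7 and Srebf2, picked by symbol out of 29454 genes measured in the neonatal hippocampus. Each of the 7 has 1 row in the table, and 7 of 7 passed the filter on low values (at least 1 FPKM in at least 3 libraries), as did 16503 genes in all. FPKM, which scales fragments by transcript length and by the size of the library, corrects for length, so levels can be set beside each other between genes. None of the 7 takes up cholesterol. Uptake was therefore followed in a separate list of 12 genes, next to lists for the other synthesis enzymes, for the control of the SREBP factors, for efflux and storage, and for fatty acid synthesis.

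The study sequenced ribosome-depleted hippocampal RNA of mouse pups in 12 libraries, in a study of back-signalling by CX3CL1, a membrane-bound chemokine of neurons, and neurogenesis. The 3 WT libraries came from pups with neither transgene. Pups carrying the CaMKIIα-tTA driver without the transgene gave the 3 CAMK libraries, and pups that carried both this driver and Tg-CX3CL1-ct gave the 6 CX3CL1-ct libraries. All were littermates (strain label C57/BL6, the transgenic line backcrossed to C57BL/6J), aged postnatal day 4 by the sample labels and day 0 by the design text. The CaMKIIα promoter directs the transactivator to forebrain neurons. CX3CL1-ct and CAMK share the driver, so only their comparison with each other concerns the transgene alone. Sex, litter, batch and whether each library is a separate animal are not given, so the p-values below reflect only how much these samples vary, which may be technical.

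Summed FPKM per library ranged from 552481 to 659362, and 15318 to 15861 genes reached 1 FPKM. Fragment counts are not in the table and depth was not estimated, so no counting intervals are given. Cx3cl1 itself ranged from 38.6 to 42.4 FPKM among WT libraries, from 34.7 to 41.6 among CAMK and from 33.5 to 48.4 among CX3CL1-ct libraries. These ranges overlap, so the gene does not check the CX3CL1-ct labels. Of 8 hippocampal neuron markers, Prox1, Zbtb20, Neurod6, Neurod2, Wfs1 and Fibcd1 were above 4 FPKM in every library and Lct was under 1 FPKM in all. The 8th, Spink8, also fell under the filter on low values. By contrast, 3 libraries stood apart. The summed FPKM of 7 striatal neuron markers was 191 in WT 2, 137 in WT 3 and 124 in CX3CL1-ct 5, and 24.4 to 38.4 in the other 9 libraries. In CX3CL1-ct 5 the summed FPKM of 8 hippocampal neuron markers was 98.5, against 189 to 300 elsewhere. CX3CL1-ct 1, 2 and 3 were unusually alike: their median absolute log2 difference over 6704 genes of 10 to 100 FPKM was 0.06 to 0.08, against 0.10 to 0.18 for the other pairs of that group. For the 7 genes, medians and differences that change sign without the 3 libraries of high striatal markers are given both ways. So are counts of higher genes in the lists, where they change without these libraries. With CX3CL1-ct 1 to 3 averaged, only differences that changed sign and counts of genes called are given, in the closing section.

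Cholesterol does not cross from blood into brain in useful amounts, so brain cells build it from acetyl-CoA. Early steps make mevalonate and isoprenoid units, squalene is then formed, oxidised and closed into lanosterol, and late steps turn lanosterol into cholesterol. SREBP2, the product of Srebf2, is a membrane-bound transcription factor that is released when sterols are scarce and then activates nearly all genes of this pathway, together with NF-Y, which binds CCAAT boxes. In the neonatal brain both neurons and astrocytes make cholesterol, before myelinating oligodendrocytes become its main makers.

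RefSeq promoter sequences (GRCm38.p6, the build that mm10 also names) were at hand for 6 of the 7 genes. They are shown because genes of this pathway are known to share SREBP and NF-Y elements; whether these elements bear on the levels measured here was not tested. Positions count from the RefSeq start, which differs from the GENCODE gene ends printed further on, and the stretches shown for Idi1 and Cyp51 lie inside the GENCODE gene. The 250 bases before each start were searched on both strands for TCACNCCAC, the core of the sterol regulatory element SRE-1, and for CCAAT, which do not overlap each other. The SRE-1 core was found in 1 of 6, that of Hmgcs1, and in 1.05% of all 32851 promoters. CCAAT was found in 5 of 6, and in 33.8% of all promoters. Of the 11 other synthesis enzymes with a promoter sequence, 10 held CCAAT and 0 held the SRE-1 core. Only the form TCACNCCAC was searched, so elements that differ from it would not have been found. In Hmgcs1 the SRE-1 core starts 137 bases before the start, between CCAAT boxes (read as ATTGG on this strand) at 237, 176 and 45 bases. The stretch chr13:119690106-119690315 (plus strand) holds them, with these matches in capitals:
Hmgcs1: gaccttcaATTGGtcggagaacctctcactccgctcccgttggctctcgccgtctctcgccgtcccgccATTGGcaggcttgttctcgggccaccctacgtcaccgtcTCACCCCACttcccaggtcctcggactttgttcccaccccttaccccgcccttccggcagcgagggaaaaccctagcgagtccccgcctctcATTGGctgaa
For the other 4 with a CCAAT box, the 30 bases around the box nearest the start are shown, again with the box in capitals. They lie at chr13:8885576-8885605 (plus strand, Idi1), chr10:76531531-76531560 (plus, Lss), chr5:4104709-4104738 (minus, Cyp51) and chr15:82147122-82147151 (plus, Srebf2):
Idi1: catggtccaaggtgccATTGGctggcgacc
Lss: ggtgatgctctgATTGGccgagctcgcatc
Cyp51: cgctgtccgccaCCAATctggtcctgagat
Srebf2: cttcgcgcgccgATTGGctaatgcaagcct
The Dhcr7 window held neither motif. These are matches of letters only, and binding was not measured.

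The 7 genes kept nearly the same order of level in every library. Averaged over the 12 libraries, Hmgcs1 stood at 314 ± 34.4 FPKM (SD, n = 12), the 111th highest level in the table. Sqle followed at 75.5 ± 7.44, Cyp51 at 49.6 ± 2.96, Srebf2 at 31.2 ± 3.06, Dhcr7 at 17.6 ± 1.61, Lss at 16.5 ± 1.35 and Idi1 at 4.34 ± 0.285. The ranges of neighbours in this order did not overlap, except for Dhcr7 and Lss, where Dhcr7 was the higher in 10 of 12 libraries. Between its lowest and its highest library a gene differed by 1.23-fold (Cyp51) to 1.38-fold (Hmgcs1). All 7 were thus expressed in every library, and their differences between groups were small.

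Hmgcs1 makes HMG-CoA, the precursor of mevalonate (chromosome 13, 119690379 to 119708260, plus strand, GENCODE M21 on mm10). It stood at 275, 256 and 281 FPKM in WT 1, 2 and 3 and at 320, 335 and 345 in CAMK 1, 2 and 3. In CX3CL1-ct the lowest library was at 269 FPKM, the median at 335 and the highest at 352. All CAMK libraries and 5 of 6 CX3CL1-ct libraries lay above every WT library, and the exception was CX3CL1-ct 5. Hmgcs1 had the largest difference from WT among the 7. Its mean FPKM was 23.2% higher in CAMK than in WT and 20.6% higher in CX3CL1-ct than in WT, and 2.10% lower in CX3CL1-ct than in CAMK (-2.10%).

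Idi1 interconverts the isoprenoid units from which sterols are built (chromosome 13, 8885501 to 8892451, plus strand). Its level was 3.98, 4.41 and 4.38 FPKM in WT 1, 2 and 3, and 4.92, 4.20 and 4.42 in CAMK 1, 2 and 3. In CX3CL1-ct it ran from 3.88 over a median of 4.34 to 4.68 FPKM. The 3 groups overlapped throughout. For Idi1 the lowest WT library was WT 1, whereas WT 2 was the lowest for the other 6 genes.

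Sqle oxidises squalene, a control point of the pathway (chromosome 15, 59315077 to 59331192, plus strand). It stood at 76.8, 63.5 and 70.9 FPKM in WT 1, 2 and 3, and at 82.0, 68.4 and 79.4 in CAMK 1, 2 and 3. In CX3CL1-ct the lowest library was at 62.1, the median at 79.9 and the highest at 84.2 FPKM. Libraries WT 2, CAMK 2 and CX3CL1-ct 5 were the low ones, each lowest of its group.

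Lss closes oxidised squalene into lanosterol, the first sterol (chromosome 10, 76531588 to 76557138, plus strand). Its values were 16.7, 14.5 and 16.0 FPKM in WT 1, 2 and 3, and 18.2, 15.6 and 15.9 in CAMK 1, 2 and 3. In CX3CL1-ct they ran from 13.97 over a median of 17.0 to 18.0 FPKM. The same 3 libraries as for Sqle were the lowest of their groups, and the groups overlapped.

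Cyp51 removes a methyl group from lanosterol (chromosome 5, 4081145 to 4104746, minus strand). It stood at 45.8, 43.4 and 48.7 FPKM in WT 1, 2 and 3, and at 46.8, 50.6 and 50.8 in CAMK 1, 2 and 3. In CX3CL1-ct the lowest library was at 49.1, the median at 51.8 and the highest at 53.2 FPKM. All 6 CX3CL1-ct libraries lay above every WT library, while CAMK overlapped WT. Cyp51 was also the only one of the 7 that was not low in CX3CL1-ct 5, where it stood at 52.4 FPKM. Exons of Akap9, at 21.9 to 33.9 FPKM, overlap those of Cyp51 on the other strand. The library kit marks strand, but no source used here says that the counting did, so fragments in the overlap may not have been told apart. Hmgcs1, Idi1 and Lss also overlap exons of the other strand, of Gm48342, Gm48574 and 4930483K19Rik, of which the last reached at most 0.0569 FPKM and the others have no value here.

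Dhcr7 reduces 7-dehydrocholesterol to cholesterol (chromosome 7, 143823145 to 143848410, plus strand). Its level was 18.2, 15.0 and 17.1 FPKM in WT 1, 2 and 3, and 18.4, 15.5 and 18.3 in CAMK 1, 2 and 3. In CX3CL1-ct it ran from 15.3 over a median of 18.4 to 20.3 FPKM. Again WT 2, CAMK 2 and CX3CL1-ct 5 were lowest, and the groups overlapped.

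Srebf2 encodes SREBP2, the transcription factor of the pathway (chromosome 15, 82147181 to 82205379, plus strand). It stood at 34.0, 26.2 and 28.8 FPKM in WT 1, 2 and 3, and at 33.9, 28.4 and 30.3 in CAMK 1, 2 and 3. In CX3CL1-ct the lowest library was at 26.2, the median at 32.8 and the highest at 34.7 FPKM. WT 1 was as high as the higher CX3CL1-ct libraries, and WT 2 as low as CX3CL1-ct 5. Because the messenger RNA says nothing about the release of the protein from the membrane, SREBP2 activity was not measured here.

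**Figure D1:**
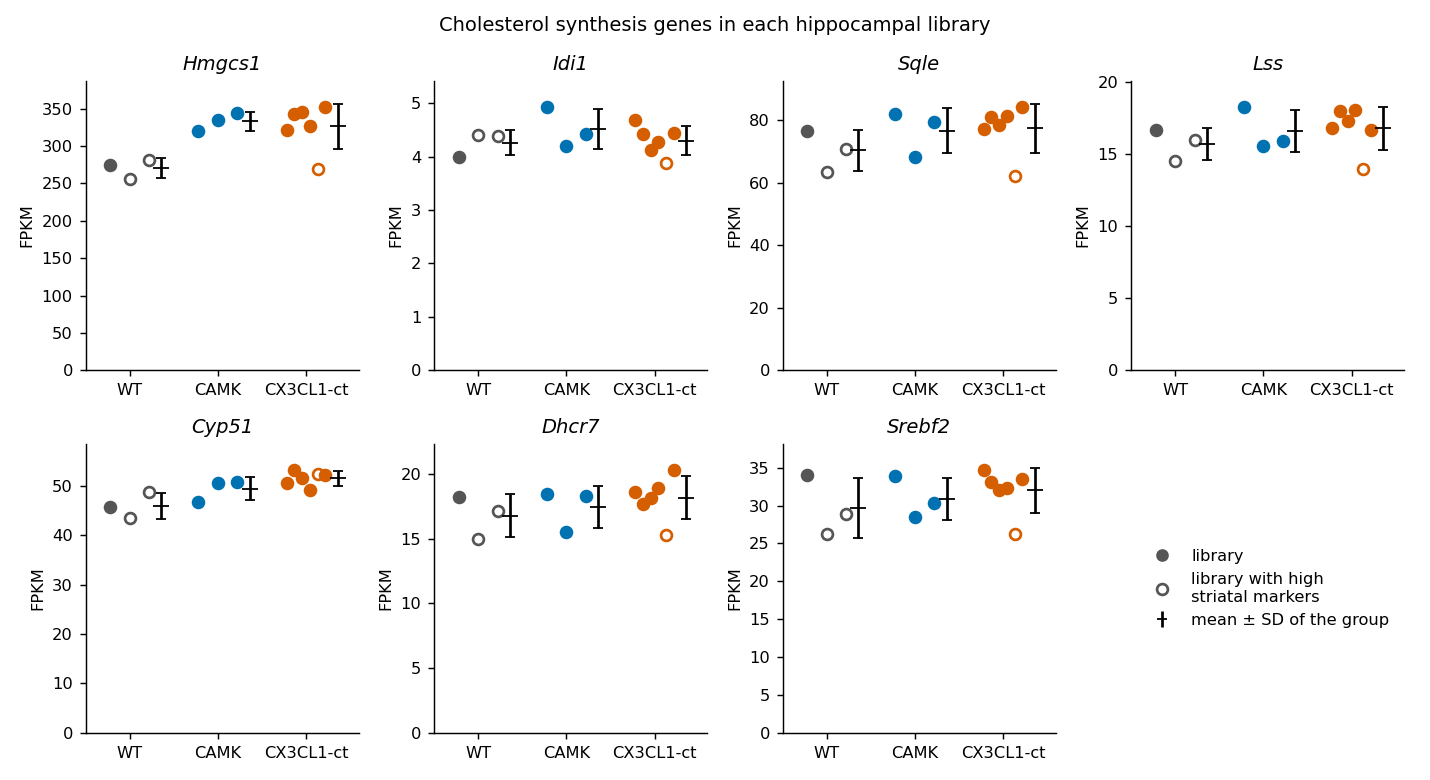
FPKM (y axis, from 0) of the 7 genes in each library (points), by group on the x axis, with the mean ± SD of each group; open points are the 3 libraries with high striatal markers (WT 2, WT 3 and CX3CL1-ct 5). Hmgcs1 in WT, at 256 to 281 FPKM, lay below all CAMK libraries and 5 of 6 CX3CL1-ct libraries.

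The driver alone was examined by CAMK against WT. None of the 7 genes passed limma's test, adjusted by Benjamini-Hochberg over all 16503 genes (0 of 7), and 1 of 7 had an unadjusted p under 0.05. Over all genes tested 0.358% (59 genes; 490 with the replicate block below) were called, and 6.60% were higher at an unadjusted p under 0.05. Hmgcs1 had a log2 difference of 0.30 (SE 0.09, 95% interval 0.09 to 0.51, adjusted p = 0.218), and its groups did not overlap, which held for 9.22% of all genes in that direction. Deviations from the group mean were weakly correlated between CAMK and WT libraries of the same number, which was taken as pairing. Libraries of different numbers were not compared, and no label states that equal numbers mark pairs. With that number as a block in the fit, the limma adjusted p of Hmgcs1 was 0.0498 (log2 difference 0.30), just under the threshold. Over all alternatives that p ran from 0.0498 to 0.488, and it passed only with this assumed pairing. With the 3 libraries of high striatal markers left out, only WT 1 remained of its group and was assumed to vary like the others. The difference was then 0.28. All differences from WT without these 3 libraries rest on WT 1. Its 6 choroid plexus markers summed to 2320 FPKM, against 100.1 to 1141 in the other libraries.

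The other 6 genes were higher in CAMK by 0.05 to 0.12 on the log2 scale, with adjusted p-values of 0.528 to 0.894. For Cyp51 the difference was 0.10, with a 95% interval of -0.03 to 0.23, and for Sqle 0.12, with an interval of -0.13 to 0.37. Thus 7 of 7 differences were positive (median 0.07), where 50.5% of all genes were positive (median 0.00). Without the 3 libraries of high striatal markers 4 of these turned negative: Sqle to -0.0072, Lss to -0.010, Dhcr7 to -0.066 and Srebf2 to -0.14. With the mean striatal marker level of each library as a covariate the same 4 were negative, from -0.038 (Sqle) to -0.11 (Srebf2), and leaving out WT 2 alone turned Dhcr7 and Srebf2 to -0.023. Hmgcs1, Idi1 (0.14) and Cyp51 (0.11) stayed positive, and the median over the 7 became -0.0072.

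The combined presence of driver and transgene was examined by CX3CL1-ct against WT, which uses the same WT libraries as the comparison above. None of the 7 passed limma's test (0 of 7), and 2 of 7, Hmgcs1 and Cyp51, had an unadjusted p under 0.05, both higher. The background was 0.454% of genes called and 8.80% higher at an unadjusted p under 0.05. Hmgcs1 differed by 0.26 (SE 0.08, interval 0.09 to 0.44, adjusted p = 0.209). Cyp51 differed by 0.16 (SE 0.05, interval 0.05 to 0.27, adjusted p = 0.221), a mean FPKM 12.0% higher, and its groups did not overlap, as in 4.67% of all genes in that direction. The other 5 differences ran from 0.01 (Idi1) to 0.13 (Sqle), with adjusted p-values of 0.606 to 0.963.

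CX3CL1-ct 5 weighed on this comparison. Without it the difference of Hmgcs1 was 0.32 and passed the limma test (adjusted p = 0.0280), as the only one of the 7; over all alternatives that p ran from 0.0280 to 0.570. Without WT 2, WT 3 and CX3CL1-ct 5 together it was 0.30 (limma adjusted p = 0.421), with 1 WT library left, and that of Cyp51 was 0.16 (adjusted p = 0.541). All 7 differences were positive (median 0.11), where 62.7% of all genes were (median 0.04). With the libraries rescaled to a common median ratio, Idi1 turned to -0.027, and without WT 1 also to -0.027. Without the 3 libraries of high striatal markers Srebf2 turned to -0.036 and the median over the 7 became 0.067, and with the striatal covariate Sqle, Lss, Dhcr7 and Srebf2 turned to between -0.0029 and -0.042.

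For CX3CL1-ct against CAMK, in which both groups carry the driver, 5 of the 7 genes were higher and 2 lower, with a median log2 difference of 0.02, where 63.2% of all genes were higher (median 0.04). None passed limma's test (0 of 7) and 0 of 7 had an unadjusted p under 0.05, beside 0.0606% of genes called and 6.37% at an unadjusted p under 0.05. Cyp51 differed by 0.06 (interval -0.05 to 0.17, adjusted p = 0.896). Hmgcs1 differed by -0.04 (interval -0.21 to 0.14), Idi1 by -0.06 (-0.21 to 0.10), Sqle by 0.01 (-0.20 to 0.23), Lss by 0.02 (-0.17 to 0.20), Dhcr7 by 0.06 (-0.14 to 0.25) and Srebf2 by 0.05 (-0.17 to 0.26). The 95% intervals thus span at most from -0.21 to 0.26. With rescaled libraries Sqle turned to -0.032 and Lss to -0.027, without CX3CL1-ct 5 Hmgcs1 turned to 0.019 and the median, with WT 2 and WT 3 also left out, became 0.065, and without CAMK 2 Sqle, Lss, Dhcr7 and Srebf2 turned to between -0.066 and -0.0076.

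**Figure D2:**
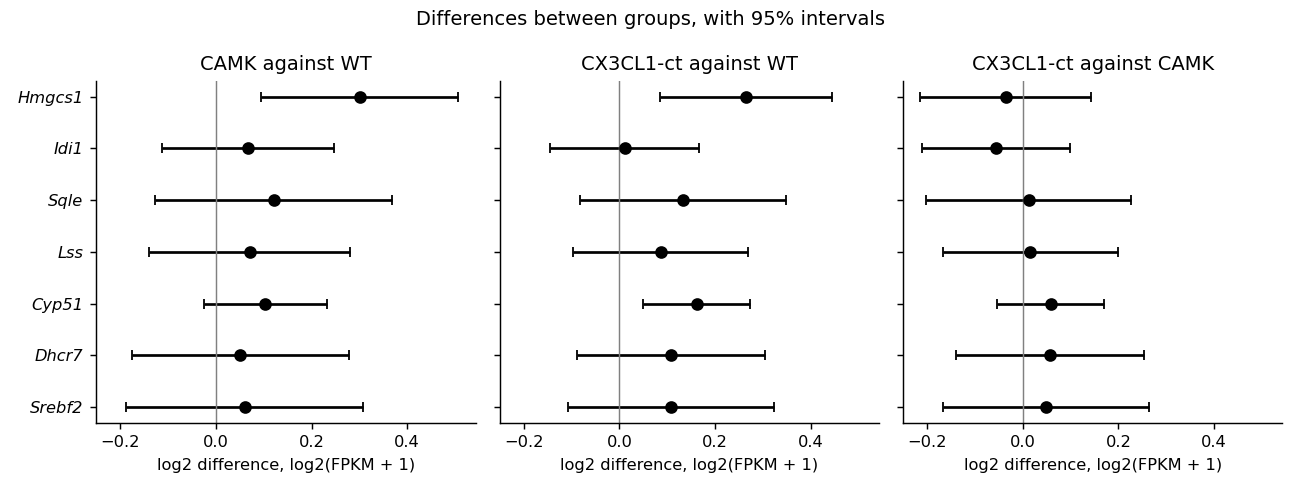
Log2 difference of each of the 7 genes (x axis, on the log2(FPKM + 1) scale) with its 95% interval from limma, in the 3 comparisons. The interval of Hmgcs1 lies above 0 in both comparisons with WT (0.09 to 0.51 and 0.09 to 0.44), and that of Cyp51 in CX3CL1-ct against WT.

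Within groups the genes varied by library, and the same libraries were low for most of them. WT 2 was the lowest WT library for 6 of 7 genes, CAMK 2 the lowest CAMK library for 5 of 7 and CX3CL1-ct 5 the lowest of its group for 6 of 7. Against the median of the other 5 CX3CL1-ct libraries, CX3CL1-ct 5 stood at 0.765 of the level for Sqle, 0.782 for Hmgcs1, 0.790 for Srebf2, 0.809 for Lss, 0.821 for Dhcr7, 0.879 for Idi1 and 1.02 for Cyp51. Over the 16026 genes that passed the filter and were above 0 in every library the median of this ratio was 1.01, and 48.9% of genes were below 1. WT 2 against WT 1 gave a median ratio of 0.871 over the 7 genes, from 0.770 (Srebf2) to 1.11 (Idi1), and CAMK 2 against CAMK 1 gave 0.853, from 0.834 (Sqle) to 1.08 (Cyp51). The medians over all genes were 0.987 and 0.981.

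The enzymes outside the 7 showed the same libraries as low. Of 15 other synthesis enzymes, 13 were lowest in WT 2 among the WT libraries, 12 in CAMK 2 among CAMK and 13 in CX3CL1-ct 5 among CX3CL1-ct. The lowest ratios were those of Mvd, which makes isopentenyl pyrophosphate, at 0.574 for WT 2 against WT 1 and 0.655 for CX3CL1-ct 5 against the median of its group. Lbr, which also serves as a protein of the nuclear envelope, went the other way in WT 2 (1.17) and CAMK 2 (1.18). In WT 2 and CX3CL1-ct 5 the striatal markers were high, while in CAMK 2 they were at 37.5 FPKM in sum, close to CAMK 1 (33.9) and CAMK 3 (38.4). Summed hippocampal neuron markers were lowest of their group in WT 2 (189 FPKM), CAMK 2 (206) and CX3CL1-ct 5 (98.5). So were the sums of endothelial markers (51.6, 57.5 and 57.6) and of meningeal markers (20.4, 26.9 and 32.9). For astrocyte, oligodendrocyte lineage, choroid plexus, microglia and dividing cell markers, not all of these libraries were lowest. WT 3, with high striatal markers, stood below WT 1 for 4 of the 7 genes (median ratio 0.961) and for 10 of 15 other enzymes (0.948), where the median over all genes was 1.02. What part cell composition had in these levels was not tested, and in bulk RNA fewer cells of a type cannot be told apart from less RNA per cell.

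**Figure D3:**
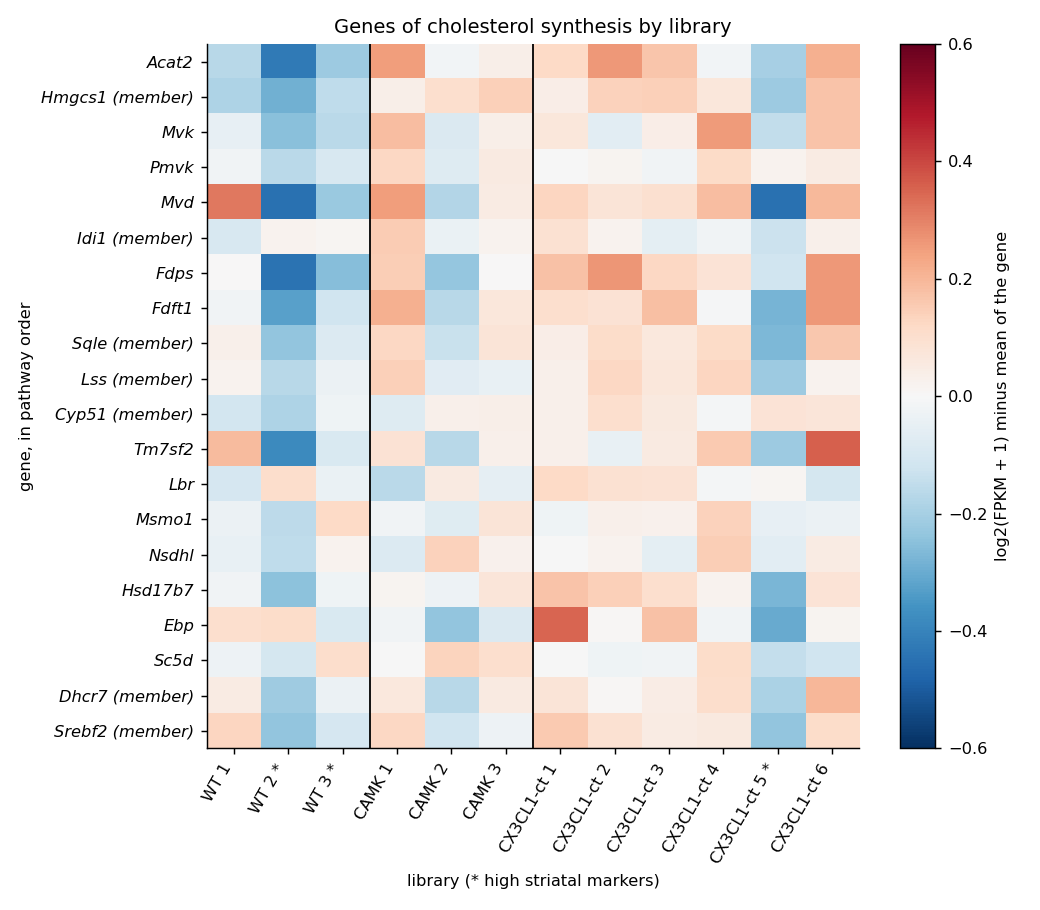
Log2(FPKM + 1) minus the mean of the gene over the 12 libraries (colour) for synthesis enzymes in pathway order and Srebf2 (rows), by library (columns; asterisks mark high striatal markers, lines separate WT, CAMK and CX3CL1-ct). WT 2 and CX3CL1-ct 5 are low for most rows, and Hmgcs1 is below its mean in all 3 WT libraries.

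Genes with the most similar pattern were sought by the Pearson correlation of their log2 level with the mean standardised level of the 7 genes over the 12 libraries, as a description, since all libraries share their scaling. The 8 most alike were Hdac9, Tpm3, Mtss1, Dpysl3, Socs7, Polr1d, Kctd10 and Layn, with coefficients of 0.96 to 0.97. None of them is a sterol gene. Among 11439 genes ranked, Fasn, the fatty acid synthase, came 15th (0.95) and Fdft1, which makes squalene, 30th (0.94). The median coefficient was 0.82 for the 15 other synthesis enzymes, 0.52 for fatty acid synthesis, 0.36 for uptake and 0.13 for efflux and storage. For scale, Fads1 at 0.19 ranked 5579th and Mbtps2 at 0.14 ranked 5914th of the 11439 genes, so the middle of the ranking lay between them. Among the cell type markers it was 0.68 for endothelium and 0.66 for meninges, both above fatty acid synthesis, and -0.81 for the 7 striatal markers. Against the mean of the other 6 genes, so that no gene was set against itself, the coefficient was 0.94 for Sqle, 0.77 to 0.84 for Hmgcs1, Lss, Dhcr7 and Srebf2, 0.38 for Idi1 and 0.26 for Cyp51.

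Of the other 15 synthesis enzymes 13 were higher in CAMK than in WT (median log2 difference 0.12, beside 50.5% of all genes higher) and 13 in CX3CL1-ct than in WT (median 0.14, beside 62.7%). Without the 3 libraries of high striatal markers these were 11 of 15 (median 0.056) and 13 of 15 (median 0.13), beside 52.3% and 61.1% of all genes. With the striatal covariate they were 10 (0.027) and 11 (0.055), beside 51.8% and 62.7%. In the fit of all libraries 0 of 15 passed limma's test in either, and 1 and 5 were higher at an unadjusted p under 0.05, beside 6.60% and 8.80% of all genes. Acat2, which joins acetyl-CoA units at the entry of the pathway, stood at 34.2 ± 3.22 FPKM in WT (SD, n = 3), 44.2 ± 4.55 in CAMK (n = 3) and 44.2 ± 5.12 in CX3CL1-ct (n = 6). Its log2 difference from WT was 0.36 in both (limma adjusted p = 0.244 and 0.176). Fdps, which makes farnesyl pyrophosphate, stood at 49.4 ± 7.83, 56.9 ± 7.53 and 63.5 ± 6.10 FPKM for WT, CAMK and CX3CL1-ct, with a difference of 0.36 for CX3CL1-ct against WT (limma adjusted p = 0.213). The differences of Fdps without the 3 libraries were -0.029 for CAMK and 0.18 for CX3CL1-ct against WT (limma adjusted p = 0.950 and 0.660). In CX3CL1-ct against CAMK 9 of 15 enzymes were higher (median 0.02, beside 63.2% of all genes), and 13 of 15 without the 3 libraries (0.057, beside 61.8%).

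Of the 6 genes that control SREBP processing, Insig1, which holds SREBPs in the endoplasmic reticulum and is itself one of their targets, stood at 29.2 ± 0.651, 31.8 ± 3.07 and 33.7 ± 1.28 FPKM, given as WT, CAMK and CX3CL1-ct. All CX3CL1-ct libraries lay above all WT libraries (log2 difference 0.20, limma adjusted p = 0.199), as in 4.67% of all genes. Srebf1, which encodes the SREBP of fatty acid synthesis, stood at 8.48 ± 0.665, 8.45 ± 0.582 and 10.01 ± 0.753 FPKM. It was the only one of the listed pathway genes whose CX3CL1-ct libraries all lay above CAMK (0.22, limma adjusted p = 0.725), as did 2.78% of all genes. Of the 6 genes, 4 were higher in CX3CL1-ct than in WT, 2 in CAMK than in WT and 6 in CX3CL1-ct than in CAMK. The shares over all genes were 62.7%, 50.5% and 63.2%. In this order 0, 0 and 0 passed the limma test, and 2, 0 and 1 had an unadjusted p under 0.05, all higher. Over all genes 8.80%, 6.60% and 5.33% were higher at that limit. Without the 3 libraries of high striatal markers 2, 1 and 6 were higher, beside 61.1%, 52.3% and 61.8% of all genes. Srebf1 then differed by 0.13 from WT and by 0.24 from CAMK in CX3CL1-ct.

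Among the uptake genes, Lrp1, an endocytic receptor for lipoproteins that carry apolipoprotein E, differed most. It stood at 32.2, 32.9 and 31.3 FPKM in WT 1, 2 and 3 and at 47.5, 44.5 and 45.6 in CAMK 1, 2 and 3. In CX3CL1-ct it ran from 37.6 over a median of 42.1 to 53.3 FPKM. Every library with the driver lay above every WT library, and CX3CL1-ct 5 was the lowest of its group. Against WT, 9.22% of all genes did not overlap in that direction in CAMK and 4.67% in CX3CL1-ct. Lrp1 was 0.50 higher in CAMK (SE 0.11, limma adjusted p = 0.0752) and 0.42 higher in CX3CL1-ct than in WT (SE 0.09, limma adjusted p = 0.0827), short of the threshold in both. It passed in CAMK against WT with the replicate block (limma adjusted p = 0.00700), with only those 2 groups in the fit (0.0373) or without CX3CL1-ct 6 (0.0161). With single libraries left out it passed in CX3CL1-ct against WT without CX3CL1-ct 5 (0.0338) or CX3CL1-ct 6 (0.0463). Without the 3 libraries of high striatal markers the differences were 0.50 (limma adjusted p = 0.288) and 0.46 (0.421), and over all alternatives the adjusted p ran from 0.00700 to 0.288 and from 0.0168 to 0.421.

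None of the other uptake genes passed the limma test in any comparison. In CAMK against WT the groups also did not overlap for Npc1, which releases cholesterol from lysosomes (0.075, limma adjusted p = 0.681), and for Stard4, a sterol carrier (-0.087, limma adjusted p = 0.731). Over all genes this held for 9.22% in the higher direction and for 1452 of 16503 genes in the lower. Of 11 uptake genes tested (1 of 12 fell under the filter), 7 were higher in CAMK and 6 in CX3CL1-ct than in WT. Their medians were 0.04 and 0.03, and the shares of all genes higher were 50.5% and 62.7%. Of the 8 efflux and storage genes tested (Nr1h3 fell under the filter), Cyp46a1, which turns cholesterol into its exported form in neurons, stood at 12.3 ± 1.254 FPKM with no transgene, 16.4 ± 2.49 in CAMK and 13.0 ± 1.77 in CX3CL1-ct. Its differences were 0.39 for CAMK against WT (limma adjusted p = 0.257) and -0.32 for CX3CL1-ct against CAMK (limma adjusted p = 0.725). The former was 0.23 without the 3 libraries (limma adjusted p = 0.644). Apoe, the main lipid carrier made by astrocytes, stood at 471 ± 83.8, 408 ± 18.3 and 462 ± 70.0 FPKM. For fatty acid synthesis 5 of 9 genes were higher than in WT in either comparison, beside the same 50.5% and 62.7% of all genes. The medians were 0.0077 in CAMK and 0.019 in CX3CL1-ct, and Fasn stood at 71.7 ± 9.30, 85.2 ± 10.5 and 85.5 ± 9.47 FPKM. Fasn differed from WT by 0.046 in CAMK and 0.12 in CX3CL1-ct without the 3 libraries, against 0.25 in both with them. Without the 3 libraries, uptake genes were higher than in WT in 7 of 11 (CAMK) and 8 of 11 (CX3CL1-ct). Efflux and storage genes were higher in 4 and 1 of 8 (4 and 5 with all libraries), and fatty acid genes in 4 and 6 of 9. Beside these, 52.3% and 61.1% of all genes were higher. In CX3CL1-ct against CAMK, 4 of 11 uptake genes were higher, and 6 of 11 without the 3 libraries. Efflux and storage genes were higher there in 3 of 8 and fatty acid genes in 8 of 9, with and without these libraries. The shares of all genes higher were 63.2% with them and 61.8% without. Over all 49 pathway genes tested beside the 7, 0 passed limma's test in each comparison; at an unadjusted p under 0.05 there were 5 in CAMK against WT (10.2%, beside 12.4% of all genes), 10 in CX3CL1-ct against WT (20.4%, beside 12.3%) and 2 in CX3CL1-ct against CAMK (4.08%, beside 6.37%).

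**Figure D4:**
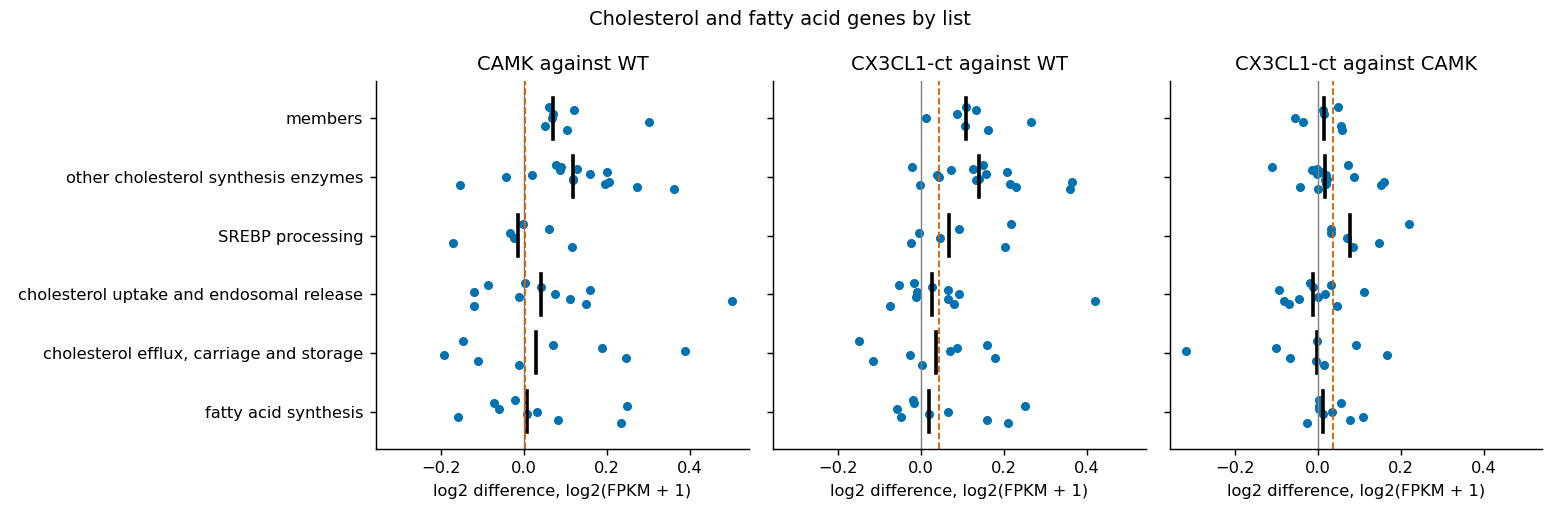
Log2 difference (x axis, log2(FPKM + 1) scale) of each gene (points) in 6 lists (y axis) for the 3 comparisons, with the median of the list (black bar) and the median of all genes tested (dashed line). The medians of the 7 members and of the other synthesis enzymes were 0.07 and 0.12 in CAMK against WT and 0.11 and 0.14 in CX3CL1-ct against WT.

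Markers of other cell types were summed beside these results. The summed FPKM of 6 genes of dividing cells was 39.3 to 47.1 among WT libraries, 26.4 to 29.9 among CAMK and 29.96 to 38.2 among CX3CL1-ct libraries. Of these, Birc5 (-0.63, limma adjusted p = 0.0201) and Cdk1 (-0.65, limma adjusted p = 0.0271) fell in CAMK against WT, where 0.358% of all genes were called. For 6 meningeal genes the sum was 20.4 to 28.2, 26.9 to 33.5 and 32.9 to 65.3. Aldh1a2 (1.41, limma adjusted p = 0.0164), Slc6a13 (1.69, 0.0156) and Slc22a6 (1.38, 0.0408) rose in CX3CL1-ct against WT, where 0.454% of all genes were called. For 8 astrocyte genes the sum was 441 to 543, 405 to 421 and 404 to 545. The 9 genes of the oligodendrocyte lineage summed to 112 to 127, 114 to 119 and 118 to 135 FPKM, and Mog, a marker of mature myelin, was under 1 FPKM in every library. Sums of 6 genes each were 305 to 2320, 100.1 to 897 and 151 to 623 FPKM for choroid plexus, 51.6 to 71.0, 57.5 to 74.8 and 57.6 to 81.4 for endothelium, and 32.6 to 42.7, 35.4 to 40.3 and 33.5 to 49.1 for microglia. None of the listed markers was at 0 in every library. Their part in the levels of the sterol genes was not tested, and the marker differences were not recomputed under the alternatives.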

How the data were processed

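The deposited table holds FPKM made by the authors for each library. The submitters' processing notes name TopHat, Bowtie, Cufflinks, Cuffdiff and build mm10, with no versions. How libraries were scaled to each other and whether strand was used are not given in the sources used here. Values were used as deposited, as log2(FPKM + 1), so a fold change understates that of low genes. Genes with at least 1 FPKM in at least 3 of 12 libraries were kept (16503). limma 3.58.1 (R 4.3.3; eBayes with trend) fitted the 3 groups to all 12 libraries, with two-sided p-values adjusted by Benjamini-Hochberg over all genes and a threshold of 0.05. The steps were tested on simulated data. Coordinates and overlapping exons come from GENCODE M21, which held all 120 listed genes by ID; 36 of 51 other pathway genes had a RefSeq promoter. Python 3.11.15, pandas 2.3.3 and matplotlib 3.10.9 made the tables and figures.

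The 7 genes and all lists were chosen with earlier results of these data known. Named are the 7, Cx3cl1, up to 3 genes per list and comparison with the smallest p, and the 8 most alike in pattern; Npc1, Stard4, Mvd, Lbr, the marker genes, and Fdft1 for its rank, were named after their values were seen. A few genes covered by this rule were left out of the text. Numbers 1 to 3 occur in each group. Across genes, deviations from the group mean had correlations of 0.236, 0.163 and 0.100 between CAMK and WT libraries of the same number, which was taken as pairing. The values for CX3CL1-ct with WT (0.114, -0.062 and 0.011) and with CAMK (0.110, -0.13 and -0.091) were not, though 0.114 and 0.110 exceed 0.100. Libraries of different numbers were not compared, so the pairing rests on these correlations alone. CX3CL1-ct 4 to 6 have numbers of their own, so with the block they add nothing to the differences. The alternatives were another pseudocount (0.1), no filter, median-ratio scaling, fits of 2 groups, the block, single libraries left out, CX3CL1-ct 1 to 3 averaged and a robust prior; those chosen after seeing the data are named in the closing section.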

Additional observations from a re-analysis of the deposited data

Results flagged for a closer look

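In 4 of the 7 genes CX3CL1-ct 5 lay further from the other 5 libraries of its group than Dixon's 95% limit for 6 samples, as the share of the group's whole range taken by the gap. Hmgcs1 stood at 268.8 FPKM there, with the next library at 321 (gap 0.628 of the range), and Sqle at 62.1, with the next at 77.2 (0.682). Lss stood at 13.97 FPKM, with the next at 16.6 (0.658), and Srebf2 at 26.2, with the next at 32.1 (0.697). Over all 16503 genes tested this library passed the same limit on the low side for 2.15% and on the high side for 6.13%. Chance flags about 1 in 20 groups, and the 4 genes come from the same library, so these are not independent flags. In this library the striatal markers summed to 124 FPKM and the hippocampal neuron markers to 98.5; their part in the flagged levels was not tested.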

How the results depend on the processing

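The counts of genes past the threshold and the differences of the 7 genes and Lrp1 were recomputed under 21 alternatives. The lists and other pathway genes were recomputed without the 3 libraries of high striatal markers and with the striatal covariate. Library orders, ratios, correlations and cell type markers were recomputed under none. Of the 21, leaving out WT 2, WT 3 and CX3CL1-ct 5 together, and the striatal marker level as a covariate, were chosen after seeing the data. Of 441 differences of the 7 genes, 401 kept their sign and side of the threshold, 3 newly passed and 37 changed sign. The cause of the changes was not tested. Some of these signs could not change. No filter, a robust prior, fits of 2 groups, or leaving out a library of the third group move only the p-value. The 401 thus overstate how stable the signs are. Of the 7 genes 0 passed in each comparison. Leaving out single libraries gave 0 to 0 for CX3CL1-ct against CAMK and for CAMK against WT, and 0 to 1 for CX3CL1-ct against WT. With the replicate block 1 passed against WT in either comparison, Hmgcs1, at 0.31 for CX3CL1-ct (limma adjusted p = 0.0415) and 0.30 for CAMK. The number was not taken to pair CX3CL1-ct with WT, and in the block CX3CL1-ct is compared by its libraries 1 to 3. Of the other 49 pathway genes, 2 passed with the block in CX3CL1-ct against WT and 1 in CAMK against WT, and 1 in the latter with only those 2 groups fitted, while leaving out single libraries gave 0 to 1. These were Lrp1 (with the block 0.35 in CX3CL1-ct against WT, limma adjusted p = 0.0168) and, with that block, also Acat2 (0.45, limma adjusted p = 0.0470). Over all genes 10 passed in CX3CL1-ct against CAMK, 75 in CX3CL1-ct against WT and 59 in CAMK against WT. In this order the replicate block gave 171, 540 and 490, and leaving out single libraries gave 9 to 12, 26 to 158 (without WT 3 and without CX3CL1-ct 5) and 21 to 153 (without WT 3 and without CX3CL1-ct 6). For the comparisons of CX3CL1-ct and CAMK with WT the counts were 144 and 123 without a filter, 28 and 26 with CX3CL1-ct 1 to 3 averaged, and 12 and 10 without the 3 libraries of high striatal markers. With 2 groups fitted 38 passed for CX3CL1-ct against WT, and with the striatal covariate 145 for CAMK against WT. Signs changed as follows. With the striatal covariate, CAMK against WT gave -0.038 for Sqle, -0.047 for Lss, -0.082 for Dhcr7 and -0.11 for Srebf2, and CX3CL1-ct against WT gave -0.0029 for Sqle, -0.015 for Lss, -0.0072 for Dhcr7 and -0.042 for Srebf2. Without the 3 libraries, CAMK against WT gave -0.0072 for Sqle, -0.010 for Lss, -0.066 for Dhcr7 and -0.14 for Srebf2, CX3CL1-ct against WT -0.036 for Srebf2, and CX3CL1-ct against CAMK 0.019 for Hmgcs1. The block gave 0.014 for Hmgcs1 in CX3CL1-ct against CAMK. Rescaling gave -0.032 for Sqle and -0.027 for Lss in that comparison and -0.027 for Idi1 in CX3CL1-ct against WT, and averaging CX3CL1-ct 1 to 3 gave -0.0048, -0.0087 and -0.0028. Leaving out single libraries, CX3CL1-ct against CAMK ran from -0.065 to 0.019 for Hmgcs1, -0.066 to 0.074 for Sqle, -0.024 to 0.083 for Lss, -0.019 to 0.10 for Dhcr7 and -0.0076 to 0.12 for Srebf2. CX3CL1-ct against WT ran from -0.027 to 0.035 for Idi1, and CAMK against WT from -0.023 to 0.13 for Dhcr7 and -0.023 to 0.16 for Srebf2. Depth was not estimated, so its part in these limits was not tested.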
